A study of Mus musculus with 3 samples.

Results

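Apolipoproteins and lipid efflux genes were followed across the cell types of mouse hippocampus as a set of 8 genes of the 21750 features counted: Apoe, Apod, Clu, Lcat, Abca1, Abcg1, Lrp1 and Plin2. They were taken by gene symbol alone, with no measured value used, and each of the 8 symbols matched a single row (ENSMUSG00000002985, ENSMUSG00000022548, ENSMUSG00000022037, ENSMUSG00000035237, ENSMUSG00000015243, ENSMUSG00000024030, ENSMUSG00000040249 and ENSMUSG00000028494, in that order). The cells came from 1 single-cell RNA library of mice of the genotype Aldh1l1CreERT2;Rosa26-LSL-tdTomato, in which tamoxifen switches on the red reporter tdTomato mainly in astrocytes. Their hippocampus had received a Cre-dependent AAV-TIGRi-Hopx, a viral vector directed against the homeobox gene Hopx that also carries EGFP. Hippocampi of 5 mice, pooled so that no cell can be traced to a mouse, were taken 3 weeks after tamoxifen and sorted to enrich for both reporters. Every cell therefore shares the genotype, the vector, the tamoxifen and the sort, and no control library was analysed here, so no value below speaks to the knockdown itself. Since there is only 1 library, differences could not be checked against replicates and were not tested. Each interval is an exact 95% one and covers counting error only.

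Lipids leave brain cells on particles built around apolipoproteins. The membrane pumps ABCA1 and ABCG1 load cholesterol and phospholipid onto apolipoprotein E and its relatives, the enzyme LCAT turns the cholesterol on the particle into ester, and receptors such as LRP1 take the particle up again. Astrocytes are known as the main source of brain apolipoprotein E, and microglia raise it in disease and injury states. Fat that is not exported is kept in droplets coated by perilipin 2, the product of Plin2.

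After barcodes with fewer than 500 genes or more than 15% mitochondrial UMIs were left out, 6485 of 6672 remained, with a median of 5564 UMIs (unique molecular identifiers, 1 per captured transcript). A cell was put in a class if at least 4 of the class's 10 markers had a UMI and no other class reached more than 0.5 times that number. Among the myeloid classes (microglia, border macrophage, and monocyte or recruited macrophage) it was enough to hold more markers than either other. The 0.5 rule was applied to them only against non-myeloid classes, so these classes are less strictly kept apart from each other. None of the 8 genes is a marker. This named 5504 cells, and 627 of the 981 others carried markers of more than 1 class. The sort did not leave mostly astrocytes: 2488 cells were microglia-like, 1501 endothelial-like, 494 choroid plexus-like, 391 ependymal-like, 293 border macrophage-like, 129 astrocyte-like and 84 oligodendrocyte-like, and at least 1 UMI of EGFP was seen in only 69 barcodes and of tdTomato in 237. Of the astrocyte-like cells 11 sat exactly on the 4-marker minimum, and of the microglia-like cells 123. The median astrocyte-like cell held 8 of its 10 markers and 1 of any other class, but 4.65% mitochondrial UMIs, against 0.715% in microglia-like cells. Hemoglobin genes led the endothelial-like class. Levels are UMIs of the gene per 1000000 UMIs of the class (CPM). They allow a gene to be compared between classes, but not genes with each other, since only transcript ends are read.

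Promoters were read from RefSeq for 6 of the 8 genes, on build GRCm38.p6, which is not the build of the counts. The 3 windows shown, 250 bases before to 50 after the annotated start, belong to the genes that the comparisons between single cells turn on: Apoe, which orders the cells, and Abca1 and Plin2, whose levels are followed along that order. Abca1 and Plin2 are textbook targets of lipid-sensing nuclear receptors. Apoe lies at chr7:19699139-19699438, Abca1 at chr4:53159846-53160145 and Plin2 at chr4:86670010-86670309, each on the minus strand and printed in the direction of transcription. Capitals in Abca1 mark a stretch, from -67 to -52 with the start counted as 0, that reads on the opposite strand as 2 AGGTCA half-sites spaced by 4 bases with 3 mismatches in all. Capitals in Plin2 mark the E-box CACGTG, from -4 to 1.
Apoe: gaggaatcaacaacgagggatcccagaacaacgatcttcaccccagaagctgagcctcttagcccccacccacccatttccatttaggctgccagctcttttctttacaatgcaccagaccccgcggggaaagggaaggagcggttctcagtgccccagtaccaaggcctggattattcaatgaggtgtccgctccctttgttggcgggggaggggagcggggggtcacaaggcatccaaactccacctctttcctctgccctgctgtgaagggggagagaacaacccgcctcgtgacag
Abca1: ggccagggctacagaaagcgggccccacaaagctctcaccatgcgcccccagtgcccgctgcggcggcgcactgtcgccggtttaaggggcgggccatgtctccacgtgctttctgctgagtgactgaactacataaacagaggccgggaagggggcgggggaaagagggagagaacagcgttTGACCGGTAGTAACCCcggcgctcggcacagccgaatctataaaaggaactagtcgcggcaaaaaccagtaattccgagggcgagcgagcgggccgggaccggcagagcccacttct
Plin2: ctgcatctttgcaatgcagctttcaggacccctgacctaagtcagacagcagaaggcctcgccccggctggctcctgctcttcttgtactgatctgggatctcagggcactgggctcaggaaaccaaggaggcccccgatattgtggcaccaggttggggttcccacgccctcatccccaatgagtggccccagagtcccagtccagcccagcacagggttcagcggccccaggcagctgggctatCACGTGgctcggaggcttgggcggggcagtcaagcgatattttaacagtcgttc
On both strands, the spaced pair of half-sites with at most 3 mismatches occurs in 21.9% of all 32851 such windows, and CACGTG in 7.15%. The Lcat window, read but not shown, also holds such a pair with 3 mismatches, from -22 to -7. A single AGGTCA occurs in 16.3% of the windows, the GC box GGGCGG in 35.7% and TATAAA in 13.6%. Abca1 also holds CACGTG at -147, GGGCGG at -163 and -97, and TATAAA at -29, and Plin2 holds GGGCGG at 14 and a reversed AGGTCA at -218. The Apoe window shown has none of these letters. RefSeq lists 3 Apoe starts, and the window of the second, at chr7:19698572-19698871, holds TATAAA on both strands. The matches describe the sequence and do not show that a factor binds there. Clu and Abcg1 are named only.

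Apoe, the main lipid-carrying apolipoprotein of brain, was highest in border macrophage-like cells, the macrophages of meninges and vessels, where it made up 4.69% of all UMIs (46915 CPM, interval 46576 to 47256). Astrocyte-like cells followed with 27000 CPM (26562 to 27444), microglia-like cells with 16801 (16740 to 16863) and ependymal-like cells, which line the ventricles, with 9765 (9642 to 9890). The macrophages thus held 1.74 times the astrocyte-like level, and astrocyte-like cells 1.61 times (1.58 to 1.63) the microglia-like level. Choroid plexus-like cells had 4572 CPM, oligodendrocyte-like cells 3558 and endothelial-like cells 1958. B cells (409 CPM), neuron-like cells (193) and T or NK cells (140, from 13 UMIs) stood at the bottom, and among neighbours in this order of the 10 classes with at least 20 cells only the last pair had overlapping intervals. The astrocyte-like to microglia-like ratio moved with the cells counted: it was 1.48 with at least 1000 genes and at most 5% mitochondrial UMIs, which kept 61 astrocyte-like cells, and 1.99 when each cell weighed the same.

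Free RNA sets a floor under these values. Ttr, the transthyretin transcript of choroid plexus, reached 212893 CPM there and lay between 198 and 414 CPM in the other classes with at least 20 cells. C1qa, a microglial complement gene at 14157 CPM in microglia-like cells, was at 32.3 CPM in T or NK cells, 52.4 in astrocyte-like, 102 in ependymal-like and 262 in endothelial-like cells. The floor differs from gene to gene with the amount of its own free RNA, so the Ttr levels are not a floor for Apoe. The low neuron-like and T or NK cell levels of Apoe are not read as expression. Of 32 B cells, at 409 CPM of Apoe, 30 had at most 2 Apoe UMIs in 2000. How much of the neuron-like, T or NK cell, B cell and endothelial-like Apoe is free RNA was not tested.

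**Figure D1:**
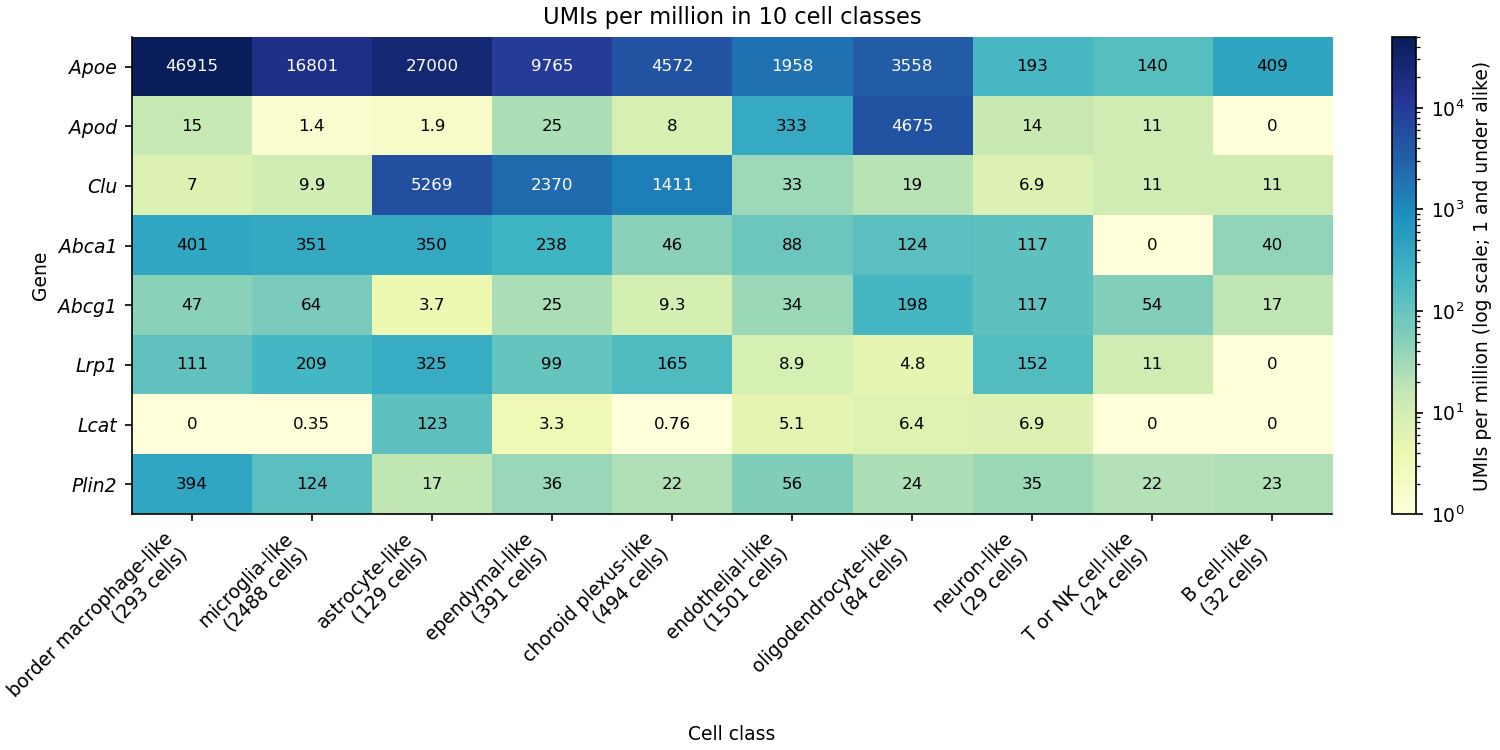
Level of the 8 genes (rows) in the 10 classes with at least 20 cells (columns), in CPM, with the value written in each field and colour on a log scale. Apoe and Plin2 are highest in border macrophage-like cells at 46915 and 394 CPM, Clu and Lcat in astrocyte-like cells at 5269 and 123, and Apod and Abcg1 in oligodendrocyte-like cells at 4675 and 198.

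Clu, which encodes the secreted chaperone clusterin (apolipoprotein J), was high in 3 classes and low in the others with at least 20 cells. It was at 5269 CPM (5076 to 5467) in astrocyte-like cells, 2370 (2310 to 2432) in ependymal-like cells and 1411 (1379 to 1443) in choroid plexus-like cells, against 33.0 in endothelial-like cells and 9.87 in microglia-like cells (168 UMIs). The intervals of endothelial-like cells and each class below them overlapped with the next in order. With each cell thinned to 2000 UMIs, 93.8% of astrocyte-like, 90.9% of ependymal-like and 91.7% of choroid plexus-like cells held at least 1 Clu UMI, and 1.49% of microglia-like cells did. Without thinning the shares were 93.8%, 95.7%, 99.4% and 4.78%, at median depths of 3243, 5687, 10256 and 6494.5 UMIs. Thinning left out 33 of the 129 astrocyte-like cells. Where Clu was high, its coefficient of variation (the SD over cells thinned to 2000 UMIs, after the counting variance was subtracted, divided by the mean) was 0.286 in choroid plexus-like, 0.467 in astrocyte-like and 0.663 in ependymal-like cells.

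Apod encodes a lipocalin that carries small lipids, and myelinating glia and fibroblasts are known to make it. Its level was 4675 CPM (4506 to 4848) in oligodendrocyte-like cells, where 91.3% of the cells thinned to 2000 UMIs held it, and 1345 CPM in the 14 fibroblast-like cells. Endothelial-like cells came next at 333 CPM (318 to 348), 13.3 to 14.9 times lower than oligodendrocyte-like cells. An Apod UMI was seen in 31.6% of thinned endothelial-like cells (42.2% without thinning) and in 0.166% of thinned microglia-like cells (0.924% without), at median depths of 3520 and 6494.5 UMIs. Elsewhere it was close to 0: 24.5 CPM in ependymal-like, 1.35 in microglia-like (23 UMIs over 2488 cells) and 1 UMI in all astrocyte-like cells. Endothelial-like cells in which Apod was seen after thinning held 47.5 CPM of the summed oligodendrocyte markers, and those without it 64.5. The part of free oligodendrocyte RNA in the endothelial-like Apod level was not tested. Of 5 other members that reached 20 CPM in these cells, 0 were at least 2-fold higher and 0 lower with Apod, against 1.54% higher and 0.457% lower of 7001 genes. Below endothelial-like cells each class overlapped with the next in order.

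Lcat, the enzyme that esterifies cholesterol on the particle, was found mainly in astrocyte-like cells, where 66 UMIs gave 123 CPM (95.4 to 157). Microglia-like cells, with far more UMIs in total, had 6 Lcat UMIs (0.353 CPM), ependymal-like cells 8 (3.27 CPM), and border macrophage-like, B and T or NK cells had 0. The astrocyte-like level was 350 times the microglia-like one (153 to 988) and 37.7 times the ependymal-like one (18.1 to 91.0). At 2000 UMIs per cell it was seen in 18.75% of astrocyte-like cells (29.5% without thinning) and in 0.124% of microglia-like cells. All classes below the astrocyte-like one overlapped with the next in order.

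Abca1, the pump that hands cholesterol and phospholipid to lipid-poor apolipoprotein, was about as high in astrocyte-like cells (350 CPM, 301 to 403) as in microglia-like cells (351 CPM, 343 to 360), a ratio of 0.995 with an interval of 0.856 to 1.15. Border macrophage-like cells had 401 CPM (370 to 434), above the microglia-like interval and overlapping with the astrocyte-like one, and ependymal-like cells below at 238 (219 to 258). Oligodendrocyte-like (124 CPM), neuron-like (117), endothelial-like (87.8), choroid plexus-like (46.1) and B cells (39.7) were lower, and T or NK cells had 0 UMIs, which allows up to 39.8 CPM at the upper bound. Of neighbours in the order, those in the pairs microglia-like and astrocyte-like, oligodendrocyte-like and neuron-like, neuron-like and endothelial-like, choroid plexus-like and B cell, and B and T or NK cell overlapped.

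Abcg1, the pump that works on particles already carrying lipid, was spread over other classes than Abca1. Oligodendrocyte-like cells were highest at 198 CPM (164 to 236) and neuron-like cells next at 117 (68.4 to 188), with overlapping intervals. Microglia-like cells had 63.9 CPM (60.2 to 67.8), 3.10 times less than oligodendrocyte-like cells (2.55 to 3.73), and border macrophage-like cells had 47.3. T or NK cells (53.9 CPM, 5 UMIs), endothelial-like (33.8), ependymal-like (25.3), B (17.0) and choroid plexus-like cells (9.34) completed the order, and from microglia-like cells down each class overlapped with the next. In astrocyte-like cells it was almost absent: 2 UMIs in all, 3.74 CPM (0.453 to 13.5), or 0.0585 times the microglia-like level (0.00708 to 0.212). Astrocyte-like cells thus held one of the pair of pumps at the microglia-like level and hardly any of the other.

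Lrp1 encodes a large endocytic receptor for apolipoprotein E particles. Its level was 325 CPM (279 to 377) in astrocyte-like cells, 209 (202 to 216) in microglia-like, 165 (154 to 176) in choroid plexus-like, 111 (95.4 to 129) in border macrophage-like and 98.5 (86.5 to 112) in ependymal-like cells. The 14 fibroblast-like cells held 763 CPM from 55 UMIs. It was near 0 in endothelial-like cells (8.91 CPM) and oligodendrocyte-like cells (3 UMIs), so the class with the most Abcg1 had almost no Lrp1. Neuron-like cells (152 CPM, 22 UMIs) overlapped with choroid plexus-like and border macrophage-like cells, border macrophage-like with ependymal-like cells, and from T or NK cells (10.8 CPM) down each class with the next.

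Plin2, the droplet coat, was a macrophage transcript in this library: border macrophage-like cells held 394 CPM (363 to 426; 615 UMIs) and the 14 cells of the monocyte or recruited macrophage class 408. Microglia-like cells had 124 CPM (119 to 129), so that border macrophage-like cells held 3.17 times as much (2.90 to 3.47). Endothelial-like cells had 56.0 CPM, ependymal-like 36.0, choroid plexus-like 22.3 and astrocyte-like cells 16.8 from 9 UMIs, 0.136 times the microglia-like level (0.0620 to 0.258). From ependymal-like cells down each class overlapped with the next.

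Set side by side, astrocyte-like and microglia-like cells differed gene by gene. Of the 7 genes that reached 20 CPM in either class, 2 (Clu and Lcat) were at least 2-fold higher in astrocyte-like cells and 2 (Plin2 and Abcg1) at least 2-fold lower. Over all 8925 genes that reached 20 CPM, 37.3% were higher and 19.6% lower by the same rule. The members' shares are near that background, so their count is not particular to them. The median log2 ratio was 0.64 over the members and 0.48 over all genes. Apoe and Lrp1 were higher by 1.61 and 1.56 times, and Abca1 stood at 0.995 times. Choosing cells by cluster, by 3 or 5 markers, or with doublets called by Scrublet left out gave 2 members higher each time.

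Lists of neighbouring pathway genes were compared between the same classes. Their counts stand beside 37.3% higher and 19.6% lower over all 8925 genes. UMI pairs are given as astrocyte-like against microglia-like, and the class totals differ widely. In the cholesterol synthesis list, 17 of 19 genes that reached 20 CPM were at least 2-fold higher in astrocyte-like cells and 1 lower, with a median log2 ratio of 2.76. Sqle, the squalene epoxidase, was 45.1 times higher (61 against 43 UMIs). Among lipoprotein receptors 6 of 14 were higher and 4 lower (median -0.00). Lrp1b stood at 562 UMIs in astrocyte-like against 35 in microglia-like cells (511 times). Lrp8, the receptor for reelin and apolipoprotein E, was at 113 times (32 against 9 UMIs) and Lrp4 at 15.8 times (119 against 240). Trem2, the microglial lipid receptor, was at 0.00894 times and the scavenger receptor Cd36 had 0 UMIs in astrocyte-like cells. Among sterol and phospholipid efflux genes 7 of 14 were higher and 5 lower (median 0.90). Cyp46a1, the enzyme that makes 24-hydroxycholesterol, was at 76.4 times (12 against 5 UMIs), Abca8a at 56.2 (30 against 17) and Abca5 at 48.5 (67 against 44). The lysosomal cholesterol carrier Npc2 was at 0.143 times. Of the regulators around the liver X receptors 8 of 16 were higher and 3 lower (median 1.37). The higher ones were led by Ppara, the fatty acid sensor (32 against 2 UMIs), and the desaturases Scd1 (124 times, 35 against 9) and Scd2 (116 times, 538 against 148). In the lipid droplet list 6 of 12 were higher and 0 lower (median 0.92), so Plin2 went the other way from the median of its own list.

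Over the 10 classes with at least 20 cells, genes most like each member were found by Pearson's r of log2(CPM + 1), a description over 10 points that share 1 library. Clu was closest to Ror1 (0.988), Col4a5 (0.985) and Acss3 (0.984), and Lcat to Mfap3l (0.980), Kcnd2 (0.960) and Baalc (0.954). Plin2 was closest to Gm6377 (0.975), Abcg3 (0.969) and Atp6v0d2 (0.967), and Abca1 to Mboat7 (0.981), Nop9 (0.978) and Zfp516 (0.968). Apod was closest to Tmf1 (0.945), Pllp (0.925) and Septin4 (0.918), and Apoe to Ankrd13d (0.928), Siae (0.909) and Itga9 (0.906). Abcg1 was closest to Dync1li1 (0.917), Bzw1 (0.916) and Ppp1cc (0.897), and Lrp1 to Slc23a2 (0.922) and Pitrm1 (0.903). Among the members themselves Apoe and Abca1 were most alike (0.761), and Clu and Abcg1 most opposed (-0.749).

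Apoe varied far more between microglia-like cells than between border macrophages. Over the 2414 microglia-like cells with at least 2000 UMIs, Apoe per 10000 UMIs ran from 3.90 at the 10th percentile through 119 at the median to 338 at the 90th and 1318 at the most, a coefficient of variation of 1.01. The 25% of cells with the most Apoe held 60.7% of the class's Apoe UMIs. At the other end, 383 cells (15.9%, Clopper-Pearson 14.4 to 17.4) had at most 2 Apoe UMIs in 2000, a level shared by 78 of 82 neuron-like, T or NK and B cells (95.1%) and so not distinguishable from free RNA. Border macrophage-like cells had no such tail: the lowest cell stood at 90.5 per 10000, the median at 488, and the coefficient of variation was 0.415.

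Astrocyte-like cells lay between those classes. Their Apoe ran from 75.8 per 10000 UMIs at the 10th percentile through a median of 235 to 545 at the 90th, with a coefficient of variation of 0.738, and 3 of 96 cells (3.125%) were at or below 2 in 2000. The spread was 0.659 under the stricter gene and mitochondrial limits and 0.826 at 1000 UMIs per cell. Ependymal-like cells were alike in relative spread (0.733) at a lower median of 82.8, and choroid plexus-like cells narrower (0.488, median 42.1). Endothelial-like cells had a relative spread of 1.75 at a median of 12.4. Oligodendrocyte-like cells had one of 1.04 at a median of 24.4, and 22 of 80 (27.5%) were at or below 2 in 2000. A wide spread with a low tail was thus not particular to microglia-like cells.

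**Figure D2:**
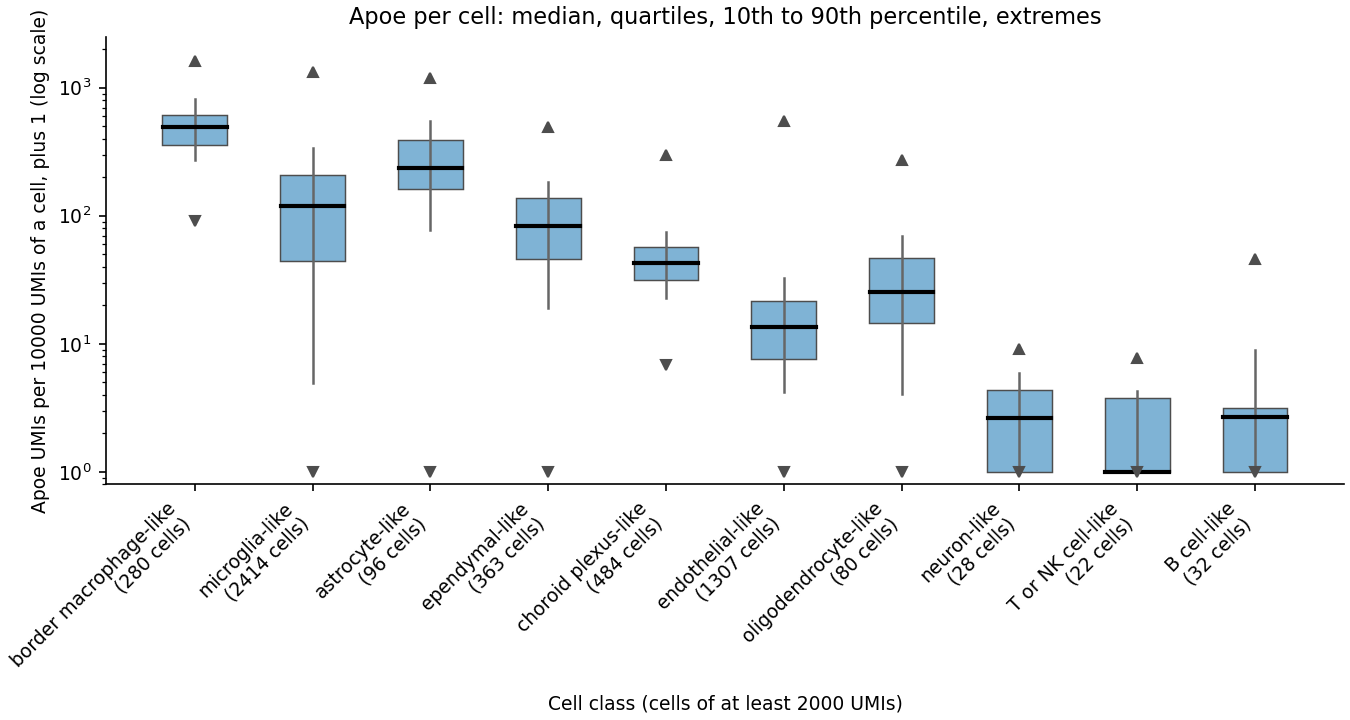
Apoe per cell, as UMIs per 10000 UMIs plus 1 on a log axis, in each class, over cells with at least 2000 UMIs: bar, median; box, quartiles; line, 10th to 90th percentile; triangles, lowest and highest cell. The microglia-like line runs from 3.90 to 338, while the border macrophage-like line runs from 272 to 809.

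Microglia-like cells were divided into 4 groups by Apoe, and the other genes were counted with Apoe UMIs left out of the total. Group levels of Apoe itself, which made the groups, were 1412, 8296, 15858 and 36311 CPM. Plin2 followed it at every step, at 46.8 CPM (39.8 to 54.7), 114, 132 and 190 (178 to 203), 4.06 times higher (3.42 to 4.84) at the top than at the bottom. The pumps followed only faintly: Abca1 went 330, 315, 365 and 406 CPM (1.23 times, 1.14 to 1.33), and Abcg1 58.7, 58.3, 67.1 and 73.9 (1.26 times, 1.05 to 1.51). Lrp1 was highest in the cells with least Apoe, at 281 CPM (263 to 300) against 190, 195 and 200 in the others (0.712 times, 0.650 to 0.781, top against bottom). Of the 4 other members that reached 20 CPM, 1 (Plin2) was at least 2-fold higher and 0 lower, against 3.18% higher and 6.49% lower of 6643 genes tested. The median log2 ratio was 0.31 over the members and -0.13 over all genes. The top group's cells were larger, with a median of 7511 UMIs against 5059.5, and alike in mitochondrial share (0.729% against 0.692%). By cluster, 548 of 603 cells in the top group and 594 of 604 in the bottom one were also named microglia-like. With only cells named by both gate and cluster, a choice made after the data were seen, the count was again 1.

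The genes that parted with Apoe in microglia-like cells included those of the damage-associated state. Of 22 such genes that reached 20 CPM, 11 were at least 2-fold higher in the top group and 0 lower (median log2 ratio 1.30). Spp1, osteopontin, was at 827.7 against 19.1 CPM (43.4 times), Gpnmb at 252 against 8.65 (29.1 times) and the fatty acid carrier Fabp5 at 666 against 37.0 (18.0 times). Igf1, the growth factor, had 217 against 2 UMIs (79.4 times, 21.7 to 660). Of 15 homeostatic microglia genes 8 were at least 2-fold lower (median -1.13), among them P2ry12 at 0.316 times and the sugar carrier Slc2a5 at 0.108. Several of these are also gate markers, and the summed microglia markers stood at 5403 CPM in the top group and 10692 in the bottom one. Border macrophage markers stood at 224 against 136 CPM and monocyte markers at 136 against 222. In each sum a single gene sets the direction: Ms4a7 had 585 against 9 UMIs among the former and Ly6c2 18 against 382 among the latter. The part of all these markers in the result was not tested.

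Other gene lists were counted along the same order. In the MHC class II list 4 of 6 were higher (median log2 ratio 1.82), with Cd74, the class II chaperone, at 4381 against 1232 CPM. In the interferon list 6 of 22 were higher and 16 within 2-fold (median 0.81). Among cytokine and immediate early genes 7 of 16 were lower and 1 higher (median -0.85): Jun stood at 0.190 times, Tnf at 0.240 and Egr1 at 0.247, and Il1b at 2.12 times. By the rule for named genes, the largest ratios at 100 CPM or more included Ms4a7 (47.6), which is also a border macrophage marker of the gate, Cxcr4 (9.79), Lgals3 (9.52), Cst7 (8.41) and Hpse (6.96). The smallest included the monocyte marker Ly6c2 (0.0345), Csmd3 (0.100), Hpgd (0.151), the heat shock genes Hspa1a (0.161) and Hspa1b (0.181), Rtn1 (0.185) and Cebpd (0.190).

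Lipid genes beyond the 8 moved in part. Of 18 genes in the apolipoprotein list 3 reached 20 CPM. Of these, 2 were higher, the small apolipoproteins next to Apoe on its chromosome. Apoc1 had 136 UMIs in the top group against 3 (33.2 times, 11.1 to 163) and Apoc4 113 against 1 (82.7 times, 14.5 to 3294). Both reached 20 CPM only in the top group, so their count is tied to that limit. Among lipoprotein receptors 3 of 12 were higher, including Olr1 at 3.92 times and Cd36 at 2.95, and in the cholesterol synthesis list 3 of 8 were (median 0.62), including Msmo1 at 2.32 and Cyp51 at 2.23. Sterol and phospholipid efflux genes mostly stayed within 2-fold: 0 of 10 were higher and 1, Abca9, was lower at 0.414 times. Of the liver X receptor regulators 1 of 10 was higher, Rxrg at 3.27 times. None of the 7 other lipid droplet genes that reached 20 CPM passed 2-fold either way.

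**Figure D3:**
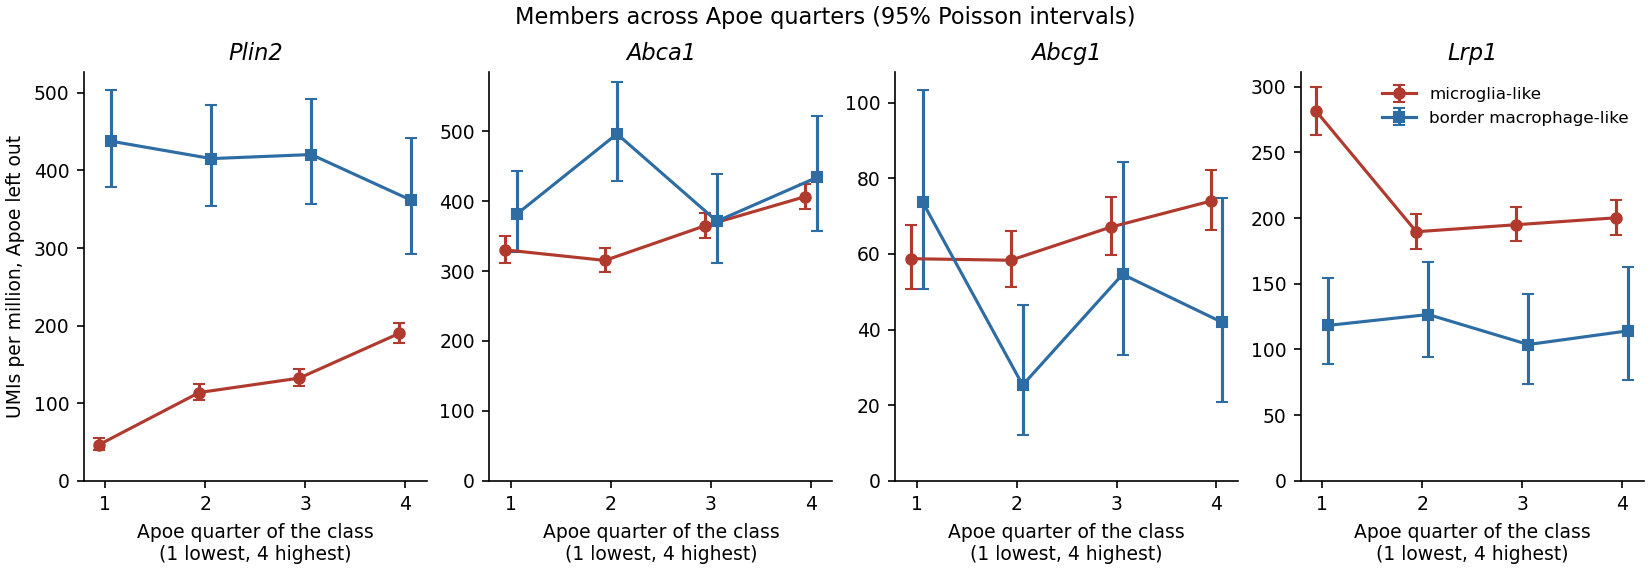
Plin2, Abca1, Abcg1 and Lrp1 in CPM (Apoe left out of the total) over 4 groups of cells ordered by Apoe, in microglia-like (red) and border macrophage-like cells (blue), with 95% Poisson intervals. Plin2 runs from 46.8 to 190 in microglia-like cells and from 438 to 362 in border macrophage-like cells.

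Border macrophage-like cells, 70 in each of 4 Apoe groups, did not repeat the Plin2 pattern. Apoe ran from 25113 to 77481 CPM, and Plin2 stood at 438, 415, 420 and 362 CPM (0.826 times, 0.640 to 1.06). Abca1 stood at 382, 496, 371 and 434 (1.14 times, 0.889 to 1.45) and Lrp1 at 118, 127, 104 and 114. Whether the Plin2 ratios of the 2 classes differ was not tested; the intervals of the ratios do not overlap. Of 5 other members that reached 20 CPM, 1 was at least 2-fold higher (Apod, 7 against 4 UMIs, 2.98 times, 0.758 to 13.9) and 0 lower. Over 7248 genes 9.22% were higher and 10.7% lower. Apod reached 20 CPM only in the top group (26.6 against 8.93 CPM), so its call is tied to that limit. Damage-associated genes went the other way than in microglia-like cells: 11 of 22 were lower with more Apoe (median log2 ratio -0.997), Fabp5 at 0.00889 times, Gpnmb at 0.0222 and Spp1 at 0.0497 (3 against 103 UMIs, 0.0101 to 0.149). In the MHC class II list 6 of 7 were lower (median -1.68). Monocyte markers summed to 66.7 CPM in the top group and 1047 in the bottom one, and the class's own markers to 12654 and 7049. Median UMIs were 3853 in the top group and 5325 in the bottom one. The part of recruited cells in this difference was not tested.

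Astrocyte-like cells were few, so they were split at the median into 48 with less Apoe (14842 CPM) and 48 with more (39445 CPM). Clu was 4340 CPM in the first and 6636 in the second (1.53 times, 1.41 to 1.65), the clearest companion of Apoe among the 8. Abca1 went the other way, at 394 and 278 CPM (0.706 times, 0.504 to 0.981). Lrp1 was 1.31 times (0.942 to 1.83) and Lcat 1.61 times (0.913 to 2.86), both with intervals that hold 1. Plin2 had 6 and 2 UMIs, Abcg1 1 and 1, and Apod 1 and 0, too few to compare. Of the 5 other members that reached 20 CPM, 0 were at least 2-fold higher and 1 (Plin2) lower. Over 8427 genes 6.79% were higher and 11.6% lower. The Plin2 ratio, 0.415 times, has an interval of 0.0409 to 2.32 that holds 1, so its few UMIs give no direction. Plin2 reached 20 CPM only with less Apoe (22.7 against 9.43 CPM). The cells with more Apoe were shallower (median 3720.5 against 5360 UMIs), and their median mitochondrial share was above the 3.69% of the cells with less. Microglia markers summed to 639 CPM with more Apoe and 653 with less, and monocyte markers to 159 and 70.9. Of the 10 monocyte markers, only 2 were seen with more Apoe and 5 with less. Their part in the result was not tested.

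The same lists were counted between the astrocyte-like cells with more and with less Apoe. Of 21 cholesterol synthesis genes 8 were at least 2-fold higher and 13 were within 2-fold (median log2 ratio 0.95), among the higher ones Fdps (2.70 times), Ebp (7 against 2 UMIs, 4.36 times, 0.829 to 43.0), Insig1 (2.30) and Hmgcs1 (2.21). Of 20 interferon genes 11 were lower and 1 higher (median -1.08), with the chemokine Cxcl10 at 1 against 33 UMIs (0.0377 times, 0.000927 to 0.225), Mx1 at 1 against 10 UMIs (0.124 times, 0.00287 to 0.875) and Ifit1 at 0.156 times. Of 17 reactive astrocyte genes 8 were lower and 1, the complement gene C3 at 2.71 times, higher, and Gfap was at 0.928 times. By the rule for named genes, Cd74 (23 against 1 UMIs, 28.6 times, 4.65 to 1179), Kcnip1 (5.81 times) and the angiotensinogen gene Agt (3.44) were among the highest. Cd74 is one of 7 MHC class II genes, of which 4 reached 20 CPM and these 4 were higher (median log2 ratio 3.27). It reached 20 CPM only with more Apoe (108 against 3.79 CPM), so its part of the count is tied to that limit. The summed monocyte markers were at 2.24 times, with 2 of the 10 seen with more Apoe and 5 with less. Histone genes that are packed into new chromatin in S phase were among the lowest, H1f4 at 0.133 times and H1f5 with 0 against 54 UMIs (at most 0.0691 times).

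**Figure D4:**
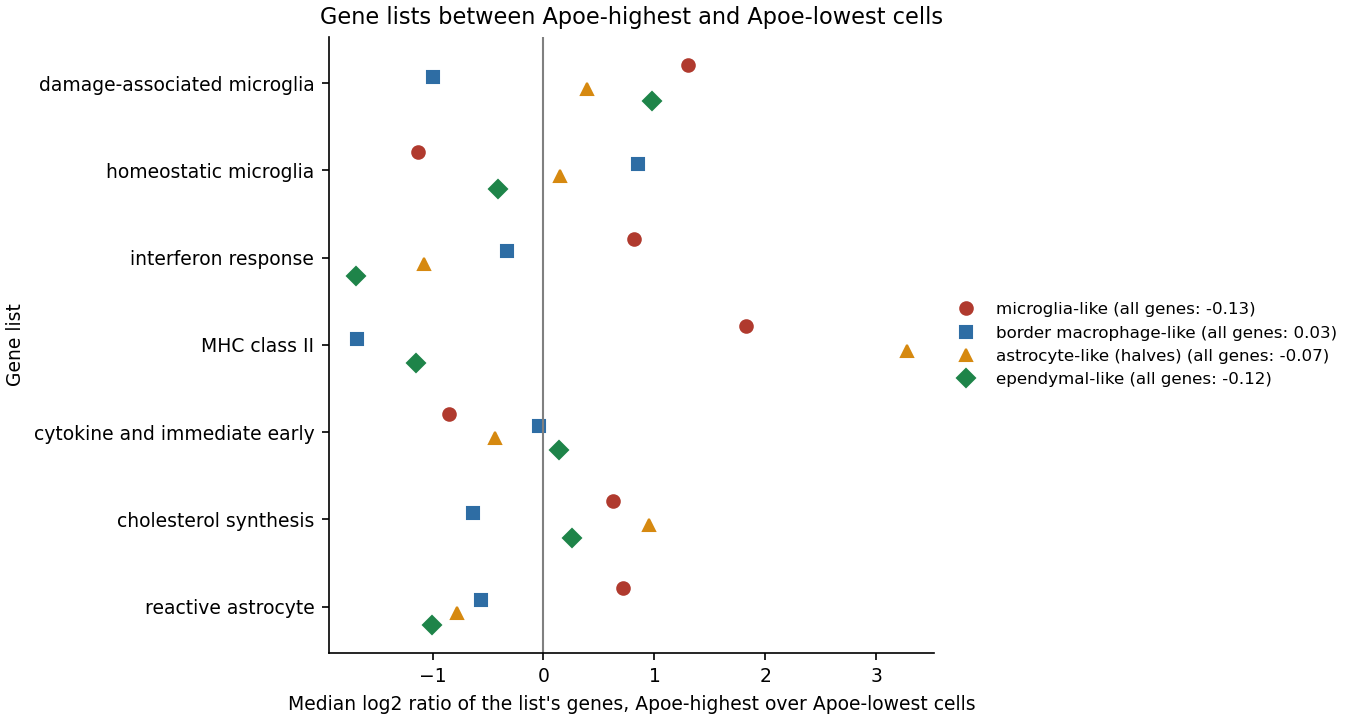
Median log2 ratio of 7 gene lists between the cells with most and with least Apoe, in microglia-like, border macrophage-like, astrocyte-like (split at the median) and ependymal-like cells. Damage-associated genes are at 1.30 in microglia-like and -0.997 in border macrophage-like cells, and interferon genes at -1.08 in astrocyte-like and -1.69 in ependymal-like cells.

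Reporter-positive cells gave the nearest look at vector-carrying cells within the library. Of the 391 ependymal-like cells 34 held an EGFP UMI, and these had 3893 CPM of Apoe against 10540 in the 357 without (0.369 times, 0.347 to 0.392). Per cell the medians were 32.6 and 87.6 per 10000 UMIs, with ranges of 0 to 208 and 2.60 to 494 that overlap. Clu was lower as well, at 1106 against 2537 CPM (0.436 times, 0.388 to 0.488). Apod had 2 and 58 UMIs (0.262 times, 0.0310 to 0.989) and Plin2 4 and 84 (0.361 times, 0.0962 to 0.960). The pumps and the receptor were not 2-fold apart: Abca1 was 295 against 230 CPM (1.28 times, 1.00 to 1.62), Abcg1 0.966 times (0.371 to 2.13) and Lrp1 0.878 times (0.556 to 1.33). Of 7 members that reached 20 CPM, 4 were at least 2-fold lower and 0 higher, against 3.75% lower and 6.17% higher of 8716 genes, and the median log2 ratio was -1.20 over members and 0.08 over all genes. EGFP is carried by the vector, and cells without an EGFP UMI are not untreated. Taking all cells that are neither myeloid nor endothelial in place of ependymal-like ones gave log2 ratios of -0.35 for Apoe, against -1.44, and -0.52 for Clu, against -1.20. In that wider set 1 member was 2-fold apart in place of 4, Abca1, which was higher (log2 ratio 1.02). The wider set mixes classes: 34 of 391 ependymal-like and 5 of 494 choroid plexus-like cells held an EGFP UMI. Choroid plexus-like cells had 46.1 CPM of Abca1 and 4572 of Apoe, against 238 and 9765 in ependymal-like cells. The part of this mix in the wider ratios was not tested.

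The same ependymal-like cells differed in the interferon response. With EGFP, 17 of 22 interferon genes were at least 2-fold higher (median log2 ratio 1.26), Cxcl10 at 5.98 times, Rsad2 at 5.40 and Mx1 at 4.74. By ratio alone, the chemokine Ccl5 stood at 39.7 times, Trib3 at 12.9 and Mthfd2 at 9.48. Among lipoprotein receptors Lrp1b was at 0.229 times and Lrp2, or megalin, at 0.355. Choroid plexus markers summed to 407 CPM with EGFP and 798 without, and ependymal markers to 6325 and 7012. Median UMIs were 6642.5 and 5585. Their part in the difference was not tested.

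Ordered by Apoe, a grouping added after the data were seen, ependymal-like cells with an EGFP UMI were 23 of 91 in the lowest group (25.3%, Clopper-Pearson 16.7 to 35.5), 7 of 91 (7.69%), 3 of 91 (3.30%) and 1 of 90 in the highest. Along the same order Clu ran 954, 2102, 3022 and 3521 CPM (3.69 times, 3.36 to 4.05), and Lrp1 56.1, 98.2, 132 and 110 (1.96 times, 1.28 to 3.05). Abca1 stood at 254, 203, 250 and 256 CPM (1.01 times, 0.801 to 1.27). Of 6 other members that reached 20 CPM, 2 (Clu and Apod) were at least 2-fold higher and 0 lower. Over 8576 genes 4.21% were higher and 9.12% lower. Apod reached 20 CPM only in the highest group (44.9 against 9.91 CPM, 27 against 6 UMIs), so its call is tied to that limit. Interferon genes were at least 2-fold lower with more Apoe in 19 of 20 (median log2 ratio -1.69). Choroid plexus markers summed to 1021 CPM in the highest group and 428 in the lowest, and their part in these values was not tested.

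**Figure D5:**
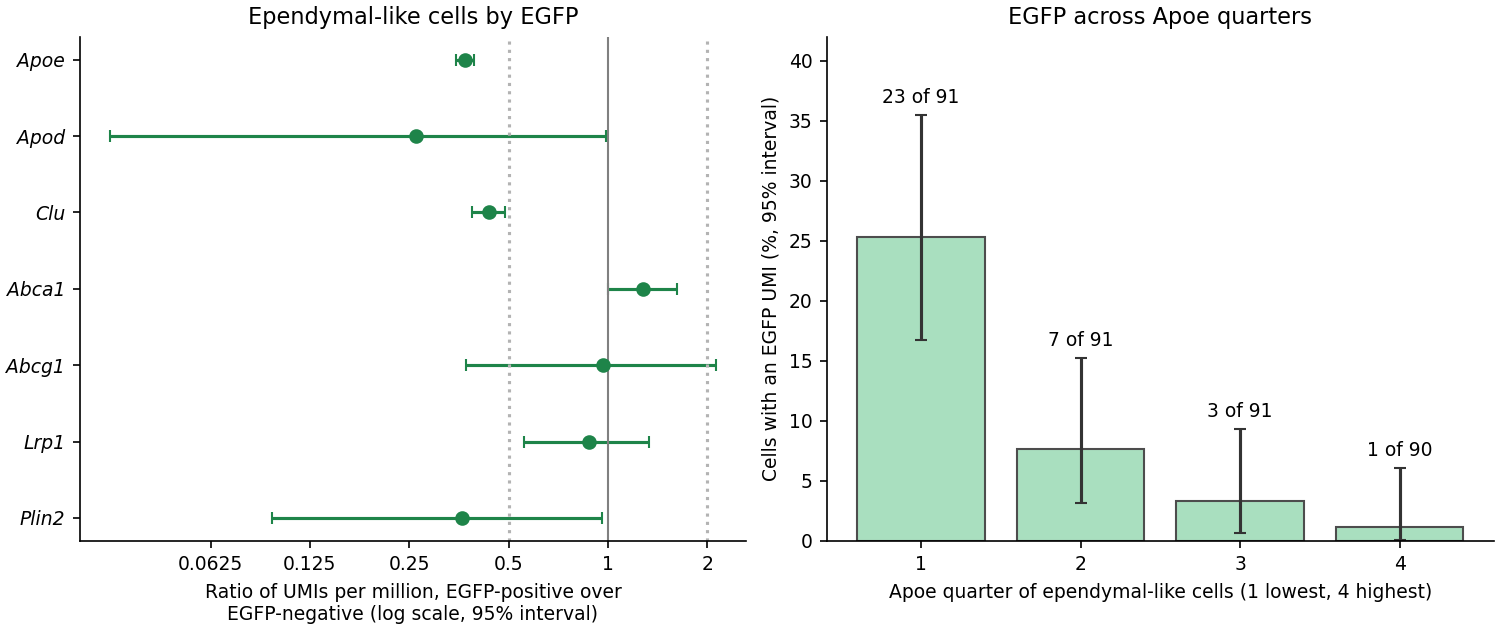
Left: ratio of EGFP-positive to EGFP-negative ependymal-like cells for each member that reached 20 CPM, log axis, with exact 95% intervals. Right: share of cells with an EGFP UMI in 4 groups ordered by Apoe, with Clopper-Pearson intervals. Apoe lies at 0.369 and Abca1 at 1.28, and the share runs from 25.3% to 1 of 90 cells.

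Astrocyte-like cells with a tdTomato UMI (25, median 6101 UMIs) were set against those without (104, median 2742 UMIs). Apoe was at 0.846 times (0.815 to 0.879), Clu at 0.966 (0.888 to 1.05), Abca1 at 0.833 (0.584 to 1.17) and Lrp1 at 0.945 (0.662 to 1.33). Lcat was at 1.77 times (1.04 to 2.96), and Plin2 had 5 against 4 UMIs (3.19 times, 0.687 to 16.1). Of 6 members that reached 20 CPM, 1 (Plin2) was at least 2-fold higher and 0 lower. Over 8322 genes 8.33% were higher and 9.28% lower. Plin2 reached 20 CPM only with a tdTomato UMI (33.2 against 10.4 CPM), so its call is tied to that limit. In the interferon list 9 of 21 were lower and 0 higher (median log2 ratio -0.74). The cells with a tdTomato UMI were the deeper ones, and the part of depth in these ratios was not tested.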

How the data were processed

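The deposited single-cell file holds UMI counts per gene and barcode, which the authors produced in Cell Ranger 8.0.1; the submitters' processing notes name GRCm39 as the build. Which gene annotation was used is not stated there. The chromatin samples of primary astrocytes (anti-Flag, IgG) were not used here. The library holds 41915122 UMIs. The 8 genes and all gene lists were chosen with earlier results of these data known.

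Barcodes with at least 500 genes and at most 15% mitochondrial UMIs were kept. Classes came from 10 markers each, of which 148 of 150 symbols matched in 15 classes; barcodes of more than 1 class were left out, and Scrublet in scanpy, which called 261 barcodes (4.02%), served as an alternative. UMIs were summed per class. Levels have exact Poisson intervals, ratios exact binomial ones and shares Clopper-Pearson ones. Log2 ratios use sums with 0.5 UMI added. A gene counts as higher or lower at 2-fold or more with at least 20 CPM in either group. A gene that reached 20 CPM in a single group thus entered a count through the group where it was high. A ratio against 0 UMIs is a bound at 3 counts over the group. Apoe groups use cells with at least 2000 UMIs, and the split gene's own UMIs were left out of totals. Named genes are the 8 members, the 3 most alike per member, the 8 largest and 8 smallest ratios at 100 CPM with intervals that do not overlap (not all are printed), and the leading 4 of a list; a few genes these rules select are not reported here. Other list genes named in the text, the Apoe splits of border macrophage-like and ependymal-like cells, the endothelial-like split by Apod and the tdTomato split were chosen after values were seen. Ratios and spreads were tested on simulated data. Scripts ran under Python 3.11.15 with scipy 1.17.1, numpy 2.4.6, scanpy 1.11.5, leidenalg 0.10.2, pandas 2.3.3 and matplotlib 3.10.9.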

Additional observations from a re-analysis of the deposited data

How the results depend on the processing

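With 1 library, leaving out a replicate was not possible. No paired analysis was possible because the single-cell group holds 1 sample. The Apoe ratio of astrocyte-like to microglia-like cells, 1.61, was 1.68 with at least 5 markers, 1.48 with at least 1000 genes and at most 5% mitochondrial UMIs, and 1.99 with cells weighed equally. The Apoe spread in astrocyte-like cells, 0.738, was 0.659 under those gene and mitochondrial limits and 0.826 at 1000 UMIs per cell. The count of members apart by EGFP, 4, was 1 over all classes other than myeloid and endothelial. The cause was not tested. The other 34 of 40 alternatives of these main values, and 70 of 90 of single genes, stayed within their limits. No value that was 2-fold apart in the main analysis changed sign over the 130 alternatives. The Abca1 log2 ratio of astrocyte-like to microglia-like cells, -0.00351, was 0.00542 with at least 3 markers. Depth limits Lcat, Abcg1 and Plin2 in astrocyte-like cells and all small classes.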

Other observations

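Endothelial-like cells with and without Apod were compared over interferon and vessel genes. Of these cells with at least 2000 UMIs, 413 held an Apod UMI after thinning (median 3968 UMIs) and 894 did not (median 3655). Apoe was at 1.18 times with Apod (1.13 to 1.22). Of 22 interferon genes 16 were at least 2-fold higher with Apod (median log2 ratio 1.22), with Cxcl10 at 13.7 times and Mx1 at 4.81, and Cxcl9 was at 15.2 times. Of 12 arterial genes 9 reached 20 CPM and 5 of these were lower (median -1.01), among them Gkn3 at 0.339 times and Vegfc at 0.353. Of 11 venous genes 9 reached it, with 3 higher and 6 within 2-fold (median 0.63). The 3 were Ackr1, the chemokine-binding receptor of venules, with 55 against 8 UMIs (13.7 times), Lrg1 at 3.30 and the adhesion molecule Vcam1 at 3.06. None of 8 capillary genes passed 2-fold. Over all 7001 genes 1.54% were higher and 0.457% lower. In the MHC class II list 3 of 4 were higher (median 1.15). Of 15 cytokine and immediate early genes 1, Tnf at 8.25 times, was higher and 14 were within 2-fold (median -0.05). Il1b was at 0.589 times (0.357 to 0.938). Of the named genes past 2-fold, Cxcl10, Cxcl9, Mx1, Ackr1 (28.4 against 2.08 CPM) and Tnf (42.9 against 5.20) reached 20 CPM only with Apod. Vegfc (9.82 against 27.8 CPM) reached it only without. The calls of these genes are tied to that limit. Summed mural cell markers were at 0.548 times and border macrophage markers at 238 against 174 CPM (1.37 times, 1.21 to 1.54). Their part in these values was not tested. The arterial, venous and capillary lists were added after Apod was seen in endothelial-like cells.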
